A study of Mus musculus with 7 samples.

Results

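The small nucleolar RNA (snoRNA) host genes are noncoding genes whose introns carry snoRNAs. The 10 members Gas5, Snhg1, Snhg3, Snhg5, Snhg6, Snhg8, Snhg12, Snhg15, Snhg17 and Snhg20 were chosen by symbol and matched to the deposited table by their Ensembl identifiers in GENCODE release M21. Of these, 8 had a row among the 43346 gene rows and were analysed. Snhg1 and Snhg8 had none under those identifiers and are not analysed here, although snoRNA genes inside them are.

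RNA was sequenced from the proximal and distal tibial growth plates of 7 male F1 mice of the cross C57BL/6JxCAST/EiJ, aged 21 days, numbered 1, 2, 3, 4, 5, 7 and 8. No mouse was treated and there was no second condition, so the comparison is between the C57BL/6J (B6) and CAST/EiJ (CAST) alleles inside each mouse. In an F1 both alleles share the same cells, which sets the comparison apart from one between strains. The labels name the cross in a single direction, in which strain and parent of origin cannot be told apart. Each value is an estimated read count that the authors' method, EMASE, assigned to a gene and an allele.

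An snoRNA guides the chemical modification of a target RNA by base pairing, for most of them ribosomal RNA. Box C/D snoRNAs guide methylation of the ribose and box H/ACA snoRNAs guide the change of uridine to pseudouridine. In vertebrates most are cut out of introns after splicing, and the spliced exons of a noncoding host are often short-lived, since ribosomes engage them and nonsense-mediated decay removes them. Many such hosts start transcription in a run of pyrimidines, the 5′ terminal oligopyrimidine (TOP) class of start that they share with the ribosomal protein genes.

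The snoRNA genes inside these hosts with unequal allele counts and at least 10 counts in every mouse are shown first. The results turn on how each compares with its host. All are from GENCODE M21 on GRCm38, written 5′ to 3′ on the transcribed strand, and the capitals mark the letters ACA that lie 3 bases from the end, where an H/ACA snoRNA carries its ACA box. Snora73a (chr4:132352775-132352979, minus strand) and Snora73b (chr4:132352322-132352526, minus strand) lie within Snhg3, Snora61 (chr4:132310240-132310369, plus strand) within Snhg12 and Gm23925 (chr2:158359798-158359929, minus strand) within Snhg17.
Snora73a: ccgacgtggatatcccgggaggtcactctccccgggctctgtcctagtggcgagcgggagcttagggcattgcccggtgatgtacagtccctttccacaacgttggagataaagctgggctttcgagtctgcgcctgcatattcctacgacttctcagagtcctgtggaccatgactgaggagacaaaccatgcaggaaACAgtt
Snora73b: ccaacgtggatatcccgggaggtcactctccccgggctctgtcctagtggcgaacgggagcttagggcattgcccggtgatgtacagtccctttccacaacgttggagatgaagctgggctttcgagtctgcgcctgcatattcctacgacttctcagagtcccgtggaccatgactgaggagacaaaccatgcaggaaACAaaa
Snora61: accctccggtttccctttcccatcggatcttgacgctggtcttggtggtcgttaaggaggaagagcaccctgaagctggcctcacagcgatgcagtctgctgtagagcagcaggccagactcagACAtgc
Gm23925: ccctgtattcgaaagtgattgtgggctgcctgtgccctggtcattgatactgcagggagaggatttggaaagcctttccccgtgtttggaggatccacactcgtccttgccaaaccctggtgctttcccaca

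Snora73a and Snora73b were identical at 198 of 205 bases (96.6%), and the longest run without a difference was 56 bases, shorter than a read of 75. Of the 34 snoRNA and small Cajal body RNA (scaRNA) genes annotated within the 10 hosts, 13 were longer than 100 bases and 8 of these held ACA at that place, against 25.7% of the 1095 annotated genes of these classes and length. The other 21 were shorter. Of those, 14 held TGATGA in the first 15 bases and CTGA in the last 15, the letters of the C and D boxes, against 61.1% of 463 annotated genes. Gm23925 held no ACA at the place searched. Snora16a in Snhg12 and Snord80 in Gas5 are each annotated as overlapping entries, and every entry is counted in these numbers. Letters were searched on the transcribed strand alone, the pairs of motifs cannot overlap, and a match is a description of the sequence.

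The starts of the hosts were read from the RefSeq promoter table (GRCm38.p6), which listed 9 starts for 7 of the members. The capitals mark a run of at least 5 pyrimidines within the first 20 transcribed bases, and each line holds 10 bases before the start and 20 from it. The lines are the start with such a run in each of 5 members, the one nearest the first base where a gene had more than 1: Gas5 at chr1:161035156-161035185 (plus strand), Snhg12 at chr4:132308668-132308697 (plus strand), Snhg17 at chr2:158361490-158361519 (minus strand), Snhg3 at chr4:132353667-132353696 (minus strand) and Snhg5 at chr9:88522878-88522907 (minus strand).
Gas5: ccatctcagcCTTTCggagctgtgcggcat
Snhg12: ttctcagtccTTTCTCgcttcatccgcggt
Snhg17: aagaccacagTTTCCTgtcgcgtggatgtg
Snhg3: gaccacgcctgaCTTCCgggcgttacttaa
Snhg5: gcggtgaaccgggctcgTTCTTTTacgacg

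A run of this kind was found at 6 of the 9 member starts, in 5 of the 7 members, against 32.8% of the 32851 promoters in the table. Both starts listed for Snhg17 hold the same run, which is counted for each. In Gas5, Snhg12 and Snhg17 it opened at the first transcribed base of a listed start. The starts listed for Snhg15 and Snhg20 held none, nor did the other start listed for Gas5. The letters are a description that says nothing of how these genes are translated.

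Counts per mouse ran from 14098019 in mouse 7 to 37849667 in mouse 5, with a median of 27603769, although the labels state an average of 6700000 reads per sample. How the estimated counts relate to those reads is not given in the sources used here. The abundant noncoding RNAs Rn7s1, Rn7s2 and Rn7sk took 15.5% (mouse 1) to 23.8% (mouse 8) of them. All 15 chondrocyte markers had at least 10 counts in every mouse, with a summed level of 73649 to 114574 CPM (counts scaled to 1000000 per mouse), as did all 9 bone markers (73744 to 125872), all 10 blood and marrow markers (8332 to 20053), all 7 muscle markers (3706 to 8053) and all 6 fat and endothelial markers (235 to 352). The label names chondrocytes, and the tissue held bone and marrow RNA beside theirs. The part of those cells in the results below was not tested.

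Host transcripts were present in every mouse, at levels above the median of the genes tested. Gas5, first known as a transcript that accumulates in growth-arrested cells, was the highest, at 13.1 ± 1.88 (SD, n = 7) CPM per kilobase of merged exons, with 10.9 in mouse 4 and 15.9 in mouse 7. It lay at the 88.2 percentile of the levels of the 20020 genes tested. Snhg5, the host of the paired snoRNAs of the Snord50 family, followed at 7.49 ± 1.09 (SD, n = 7). Snhg12 stood at 4.92 ± 0.350, Snhg3 at 4.64 ± 0.474 and Snhg6 at 4.51 ± 0.600 on the same scale (SD, n = 7 for each). Snhg15 had 3.79 ± 0.624, Snhg20 3.04 ± 0.469 and Snhg17 2.02 ± 0.146 (SD, n = 7 for each), the last at the 52.8 percentile. In bulk tissue a lower level cannot be split into fewer cells that express a gene and less RNA in each.

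The top of that order held in every mouse and its middle did not. Gas5 was above Snhg5 in 7 of 7 mice by 0.81 on the log2 scale, and Snhg5 above Snhg12 in 7 of 7 by 0.59, each with p = 0.0156 when the signs of the 7 differences were flipped in every way (exact permutation, both sides), the smallest p that 7 mice allow. Snhg12 against Snhg3 (p = 0.266, higher in 4 of 7 mice) and Snhg3 against Snhg6 (p = 0.312, higher in 4 of 7) did not pass in the same exact permutation test. Below them Snhg6 exceeded Snhg15 in 7 of 7 mice by 0.26 (exact permutation p = 0.0156), Snhg15 exceeded Snhg20 in 6 of 7 by 0.31 (exact permutation p = 0.0469) and Snhg20 exceeded Snhg17 in 7 of 7 by 0.58 (exact permutation p = 0.0156). The 7 tests of neighbours were not adjusted. With the longest transcript as the length 4 of the 8 places stayed, and with the mean transcript length 3 did, Gas5 and Snhg5 staying first and second in both. The lower part of the order turned with the length used. Snhg15 stood above Snhg6 with the longest transcript (7.63 against 6.33) and with the mean length (9.03 against 8.89), and Snhg20 stood above Snhg15 with the mean length (10.4 against 9.03), all in CPM per kilobase.

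**Figure D1:**
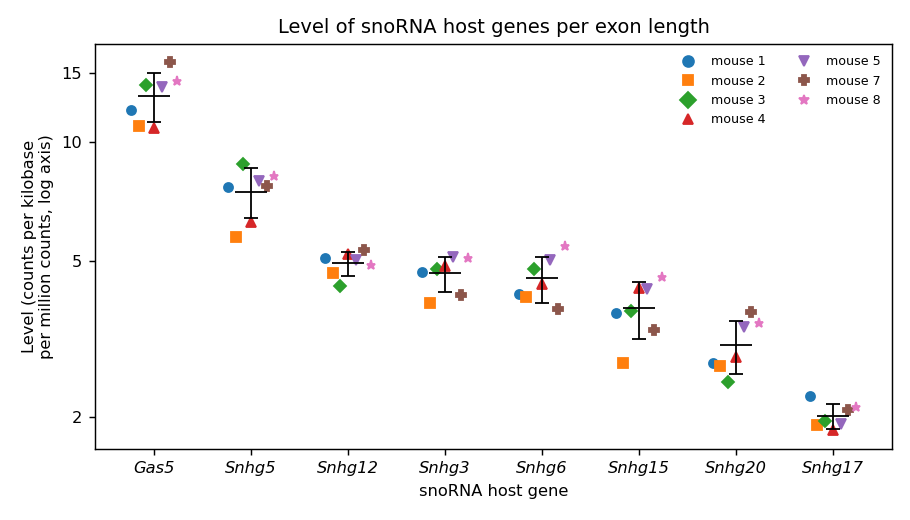
Level of each host gene in each of the 7 mice, in CPM per kilobase of merged exons on a log axis, one marker shape per mouse, with a bar at the mean and error bars of 1 SD. Gas5 lies highest, between 10.9 and 15.9, and Snhg17 lowest, with a mean of 2.02.

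The hosts varied between mice about as much as other genes. The coefficient of variation of their levels ran from 7.11% (Snhg12) to 16.5% (Snhg15), with a median of 13.8%, beside a median of 15.1% and quartiles of 11.0% and 21.1% over 15099 genes that reached 10 counts or more in each mouse. The highest CPM fell in mouse 7 for 3 of the 8, in mouse 8 for 2 and in mice 1, 3 and 5 for 1 each, so no mouse stood highest for most hosts.

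Between alleles the hosts went both ways. Snhg5 and Snhg15 had more CAST than B6 counts, Snhg6, Snhg17 and Snhg12 had more B6 counts, and Gas5, Snhg3 and Snhg20 were not called. The 5 calls of 8 were made at a false discovery rate (FDR) under 0.20, with edgeR's likelihood-ratio test adjusted by Benjamini-Hochberg over all 20020 genes tested, and the same rule called 34.8% of those genes, 16.1% with CAST higher and 18.7% with B6 higher. The median log2 difference, CAST over B6, was 0.04 over the 8 hosts and 0.01 over all genes tested, and the median size without sign was 0.36 and 0.22. With the mouse as a block 6 of the 8 were called in the likelihood-ratio test and 5 in the quasi-likelihood test, beside 45.6% and 40.7% of all genes. In 4 of the 8 all 7 mice went in 1 direction, which 24.6% of the genes tested also did. For none of the 8 were the lowest counts of one allele above the highest of the other, as they were for 5.52% of genes.

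**Figure D2:**
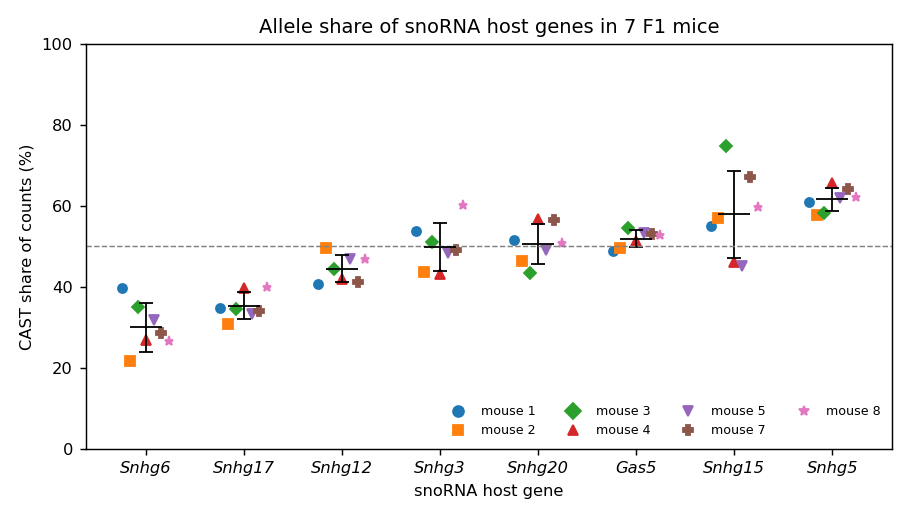
CAST share of each host's allele counts in each of the 7 mice, in percent, one marker shape per mouse, with a bar at the mean, error bars of 1 SD and a dashed line at equal shares. Snhg6 (21.6% to 39.6%) and Snhg17 (30.9% to 40.0%) lie wholly below the line and Snhg5 (57.8% to 65.6%) wholly above it.

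Snhg6, which carries the C/D snoRNA gene Snord87, had the widest difference. It lies on the minus strand of chromosome 1 (9941959 to 9944118, GRCm38). B6 counts ran from 43.6 through a median of 98.1 to 149, and CAST counts from 17.4 through 39.3 to 69.2. Every mouse had fewer CAST counts, and mice 1 and 3 came nearest to balance. The CAST share was 30.0% ± 6.00 (SD, n = 7). The fitted log2 difference was −1.21 (edgeR likelihood-ratio test, adjusted p = 2.16e-11), and the log2 ratio within mice was −1.23 ± 0.41 (SD, n = 7, exact sign-flip permutation p = 0.0156). Snhg6 was the one host whose totals were whole numbers, to within 0.0001, in all 7 mice. It shares 127 exon bases with Mcmdc2 on the opposite strand, which had 46.0 counts on average and a fitted difference of −0.71 (edgeR likelihood-ratio test, adjusted p = 0.0317). The difference between the 2 genes' log2 ratios, −0.51 ± 0.82 (SD, n = 7), did not pass an exact sign-flip permutation test (p = 0.188).

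Snhg17, host of H/ACA snoRNA genes on chromosome 2 (158353700 to 158361580, minus strand), also had more B6 counts. B6 counts ran from 137 through 249 to 342 and CAST counts from 70.8 through 131 to 170. The CAST allele was lower in all 7 mice, most in mouse 2 and least in mouse 8, and the CAST share was 35.3% ± 3.32 (SD, n = 7). The fitted difference was −0.86 (edgeR likelihood-ratio test, adjusted p = 3.52e-15), and the within-mouse log2 ratio was −0.87 ± 0.21 (SD, n = 7, exact sign-flip permutation p = 0.0156).

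Snhg12 lies on the plus strand of chromosome 4 (132308623 to 132311024) and carries 5 annotated snoRNA genes, counting both overlapping entries of Snora16a. Its B6 counts ran from 106 through 159 to 243 and its CAST counts from 74.2 through 130 to 214. B6 was higher in 7 of 7 mice, but in mouse 2 by a log2 ratio of just −0.03. The fitted difference was −0.30 (edgeR likelihood-ratio test, adjusted p = 0.0397), the within-mouse ratio −0.32 ± 0.20 (SD, n = 7, exact sign-flip permutation p = 0.0156) and the CAST share 44.5% ± 3.39 (SD, n = 7).

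Snhg5 went the other way. It lies on the minus strand of chromosome 9 (88521050 to 88522929). B6 counts ran from 67.5 through 127 to 199, and CAST counts from 121.5 through 209 to 323. CAST was higher in 7 of 7 mice, most in mouse 4 and least in mouse 2, with a share of 61.6% ± 2.89 (SD, n = 7). The fitted difference was 0.69 (edgeR likelihood-ratio test, adjusted p = 9.51e-08), and the within-mouse ratio was 0.68 ± 0.18 (SD, n = 7, exact sign-flip permutation p = 0.0156).

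Snhg15, on chromosome 11 (6525591 to 6528760, minus strand), was the most variable. B6 counts ran from 20.9 through 58.9 to 119.8 and CAST counts from 42.8 through 84.1 to 104.4. The CAST share reached 74.9% in mouse 3 and 67.2% in mouse 7, while mice 4 and 5 had 46.2% and 45.1%. The fitted difference was 0.41 (edgeR likelihood-ratio test, adjusted p = 0.168), and the within-mouse ratio, 0.48 ± 0.66 (SD, n = 7), did not pass in the sign-flip test (exact permutation p = 0.0938, CAST higher in 5 of 7 mice). The call was lost with the mouse as a block in edgeR's quasi-likelihood test (adjusted p = 0.233). It was also lost without mouse 1 (0.228), mouse 2 (0.228), mouse 3 (fitted difference 0.24, 0.506), mouse 7 (0.335) or mouse 8 (0.298), all adjusted p-values of the likelihood-ratio test.

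Gas5, which lies on chromosome 1 (161034422 to 161038539, plus strand), had the most counts and a small allele difference. It carries 10 annotated snoRNA genes, counting both overlapping entries of Snord80. B6 counts ran from 397.5 through 620.5 to 922.1, and CAST counts from 441.2 through 671.8 to 1048. CAST was higher in 5 of 7 mice, with mice 1 and 2 just on the B6 side, and its share was 51.9% ± 2.07 (SD, n = 7). The fitted difference of 0.13 was not called (edgeR likelihood-ratio test, adjusted p = 0.411). With the mouse as a block edgeR called it, at 0.13 with adjusted p = 0.0308 in the likelihood-ratio test and adjusted p = 0.0810 in the quasi-likelihood test. The within-mouse ratio was 0.11 ± 0.12 (SD, n = 7, exact sign-flip permutation p = 0.0781). Zbtb37, a zinc finger gene that starts 427 bases away on the other strand, had a fitted difference of −0.00 (edgeR likelihood-ratio test, adjusted p = 1). Gas5 minus Zbtb37 came to 0.15 ± 0.45 (SD, n = 7) on the log2 scale and did not pass (exact sign-flip permutation p = 0.438).

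Snhg3 and Snhg20 showed no allele difference that passed. Snhg3 (chromosome 4, 132348014 to 132353686, minus strand) had B6 counts of 28.8 through 63.5 to 98.5 and CAST counts of 27.9 through 66.0 to 92.1. Its log2 ratio ran from −0.39 in mouse 4 to 0.60 in mouse 8, with 3 of 7 mice on the CAST side (fitted difference 0.03, edgeR likelihood-ratio test, adjusted p = 0.990; exact sign-flip permutation p = 1). Snhg20 (chromosome 11, 117076008 to 117078955, plus strand) had B6 counts of 63.1 through 113 to 182 and CAST counts of 82.3 through 104 to 176. Its log2 ratio ran from −0.38 in mouse 3 to 0.39 in mouse 4, with 4 of 7 mice on the CAST side (fitted difference 0.06, edgeR likelihood-ratio test, adjusted p = 0.882, exact sign-flip permutation p = 0.688). The CAST shares were 49.9% ± 5.90 and 50.7% ± 4.96 (SD, n = 7 for each).

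Overlapping genes limit Snhg3 in particular. It shares 135 exon bases with Rcc1, a regulator of nuclear transport on the same strand, whose fitted difference was −0.07 (edgeR likelihood-ratio test, adjusted p = 0.828), and 705 of its 986 merged exon bases with the lincRNA gene Gm17300 on the opposite strand. Gm17300 had a fitted difference of 0.88 (edgeR likelihood-ratio test, adjusted p = 2.94e-09), and Snhg3 lay below it by 0.87 ± 0.33 on the log2 scale in all 7 mice (SD, n = 7, exact sign-flip permutation p = 0.0156). The library kit marks strand. Whether the counting used it is not given in the sources used here, so reads over the shared bases may belong to either gene. By the same tolerance of 0.0001, totals were not whole in 7 of 7 mice for each host but Snhg6 and Snhg5 (5 of 7), as can arise where the authors' method divides reads between genes. For Rcc1 the totals were whole in all 7 mice, and for Gm17300 in none.

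Snhg1 has no row under its identifier, but the gene that starts 106 bases from it on the other strand has one. That gene is Slc3a2, the heavy chain of an amino acid transporter, and CAST was higher in 7 of 7 mice with a log2 ratio of 0.29 ± 0.09 (SD, n = 7, exact sign-flip permutation p = 0.0156) and a fitted difference of 0.30 (edgeR likelihood-ratio test, adjusted p = 0.00919).

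The snoRNA genes inside the hosts were counted as rows of their own, and their counts followed their length. Of the 34, 32 had a row, and 7 of these had no count in any mouse. Among 11 genes shorter than the 75-base read, 5 had none and the highest mean was 3.83 counts per mouse. Among 9 of 75 to 100 bases, 2 had none, and Gm22357 in Gas5 had the highest mean, 75.7. Among 12 over 100 bases each had counts, and 8 had at least 10 in every mouse. Spearman's rho between length and mean count was 0.83 over the 32 genes, given as a description, since genes of 1 host and 1 set of libraries share their source. The libraries are described as holding longer RNAs than most mature snoRNAs, so a low count for a short gene says little of how much of that snoRNA the tissue held.

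**Figure D3:**
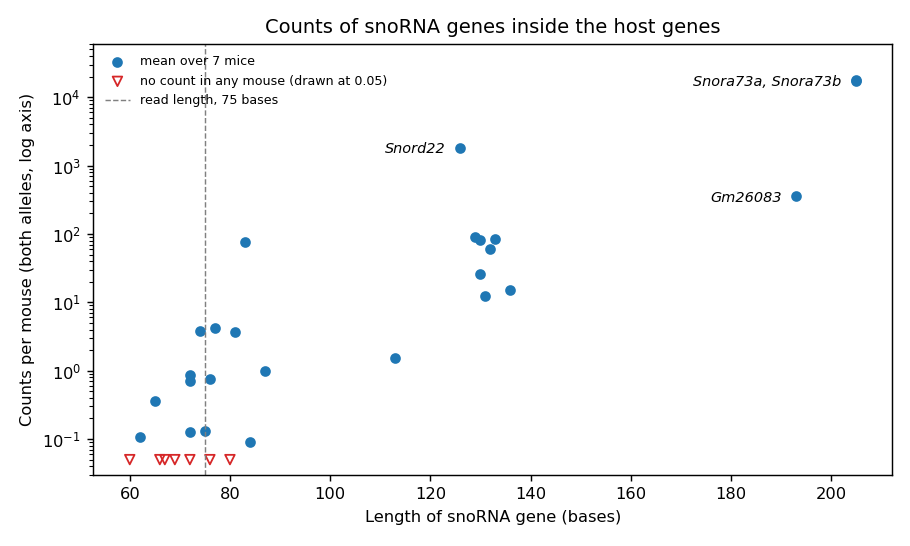
Mean count per mouse, both alleles summed, on a log axis against the length in bases of the 32 snoRNA and scaRNA genes within the hosts, with a dashed line at the read length of 75 bases. Filled points are means over 7 mice and open triangles mark the 7 genes with no count, drawn at the foot of the plot, and the pair Snora73a and Snora73b stands highest.

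Snora73a and Snora73b, the E1/U17 snoRNAs, which act in the processing of ribosomal RNA and are not known as modification guides, far exceeded their host. Snora73b had 9928 to 25040 counts per mouse and Snora73a 9561 to 24810, which was 118 to 175 times and 110 to 182 times the counts of Snhg3 in the same mouse (medians 151 and 153). Both had more CAST counts in 7 of 7 mice. Mean counts were 10358 CAST and 7253 B6 for Snora73b, with a log2 ratio of 0.50 ± 0.15 (SD, n = 7, exact sign-flip permutation p = 0.0156) and a fitted difference of 0.52 (edgeR likelihood-ratio test, adjusted p = 0.00484). For Snora73a they were 9726 and 7669, with a log2 ratio of 0.34 ± 0.08 (SD, n = 7, exact sign-flip permutation p = 0.0156) and a fitted difference of 0.35 (edgeR likelihood-ratio test, adjusted p = 0.107). Snora73b lies in no annotated exon of Snhg3, and 159 of the 205 bases of Snora73a do.

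Of the 12 such genes with a mean of at least 10 counts, 7 had equal counts for both alleles, to within 1e-06, in every mouse, which carries no allele information, and 5 held unequal counts. Besides the Snora73 pair these were Snora61 in Snhg12, Gm23925 in Snhg17 and the scaRNA gene Gm26083 in Snhg20. Of 12 hosted genes tested, 7 had equal allele counts in every mouse and could not be called. Of the other 5, the genes just named, 3 were called, Snora73b, Snora73a and Gm23925, all with CAST higher. These 3 calls among 12 genes tested stand beside 34.8% of all genes called, 16.1% with CAST higher. Snora73a and Snora73b are near-identical and lie in the same host, so their calls are not independent. Snora61 had 19.8 to 134 counts and a log2 ratio of 0.49 ± 0.41 (SD, n = 7), with CAST higher in 7 of 7 mice (exact sign-flip permutation p = 0.0156). Its fitted difference of 0.48 was not called (edgeR likelihood-ratio test, adjusted p = 0.352), and it was called with the mouse as a block (adjusted p = 0.00629 in the likelihood-ratio test and 0.0394 in the quasi-likelihood test). Gm23925 had 21.3 to 78.7 counts, with means of 39.1 CAST and 20.3 B6, a log2 ratio of 0.99 ± 0.48 (SD, n = 7), CAST higher in 7 of 7 mice and a fitted difference of 0.98 (edgeR likelihood-ratio test, adjusted p = 0.00258). Gm26083 had 197 to 626 counts and more B6 counts in 6 of 7 mice, with a log2 ratio of −0.13 ± 0.10 (SD, n = 7, exact sign-flip permutation p = 0.0312). It was not called (edgeR likelihood-ratio test, adjusted p = 0.733), and was called with the mouse as a block (0.0952 and 0.107).

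Host and hosted gene differed in allele ratio in 4 of these 5 pairs, by sign-flip tests without adjustment. The pairs are not independent, since Snhg3 hosts both of the near-identical Snora73 genes. These sign-flip tests were added after the values were seen. No share over other pairs of genes stands beside this count, and 24.6% of all genes tested singly had all 7 mice in 1 direction. Snhg17 lay below Gm23925 by 1.86 ± 0.59 (SD, n = 7) on the log2 scale in all 7 mice, the host leaning to B6 and the snoRNA gene to CAST (exact sign-flip permutation p = 0.0156). Snhg12 and Snora61 leaned apart in the same way, with the host lower by 0.81 ± 0.44 in 7 of 7 mice (SD, n = 7, exact sign-flip permutation p = 0.0156). Snhg3 lay below Snora73b by 0.50 ± 0.34 in 7 of 7 mice (SD, n = 7, exact sign-flip permutation p = 0.0156) and below Snora73a by 0.34 ± 0.32 in 6 of 7 (SD, n = 7, exact sign-flip permutation p = 0.0469). Snhg20 and Gm26083 differed by 0.17 ± 0.29 (SD, n = 7), and did not pass (exact sign-flip permutation p = 0.219).

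**Figure D4:**
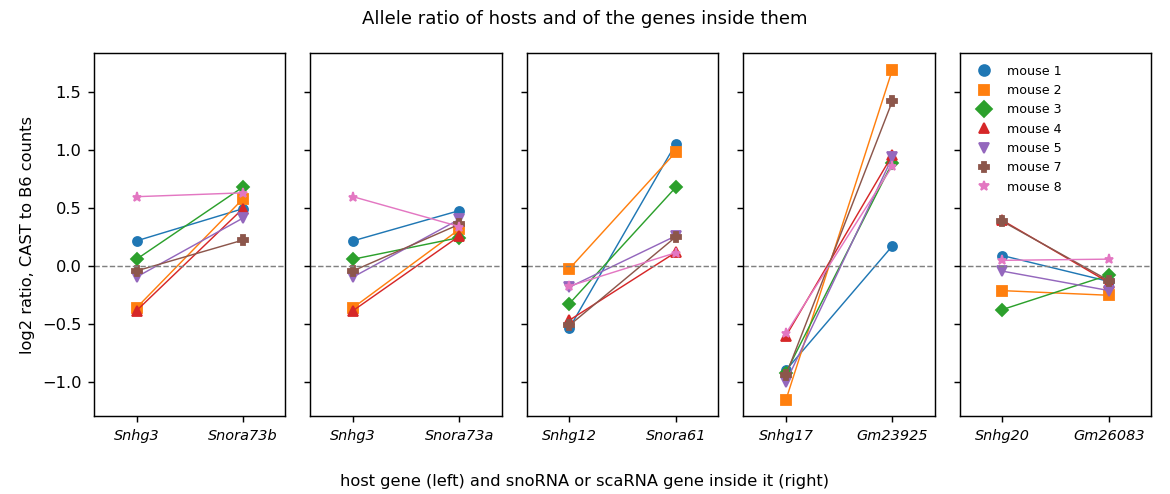
The log2 ratio of CAST to B6 counts of a host (left of each panel) and of a snoRNA or scaRNA gene inside it (right), with a line and marker shape for each of the 7 mice and a dashed line at equal counts. Every line rises from Snhg17 to Gm23925 and from Snhg12 to Snora61, by 1.86 and 0.81 on average.

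In all 5 pairs the totals of the hosted gene were not whole in any mouse. The row of Gm23925 lies inside a lincRNA row of the same name on the same strand, which had a fitted difference of 1.00 (edgeR likelihood-ratio test, adjusted p = 0.000301). In mouse 7 both rows held the same counts to every digit, 5.57 B6 and 15.7 CAST. The medians of the lincRNA row, 24.8 B6 and 47.9 CAST, also equalled the counts of the snoRNA row in mouse 5 to every digit. The lincRNA row is therefore not separate evidence of an allele difference. Of the 5 hosted genes, Snora61, Gm23925 and Gm26083 lie wholly within annotated exons of their host, where transcripts that keep the intron are annotated. The part of divided reads in the differences between host and hosted gene was not tested.

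Across mice the hosted genes moved apart from the hosts as well. Of the 12 with a mean of at least 10 counts, 11 had their highest CPM in mouse 8, and 8 had their lowest in mouse 7. The 9 of them under 150 bases summed to 49.9 CPM in mouse 7 and 134.7 CPM in mouse 8, a 2.70-fold range, and the 8 left without Snord22, the most abundant, to 7.80 and 30.1 CPM, a 3.86-fold range. The 3 of 150 bases or more spanned 1.68-fold, from 1066 CPM in mouse 1 to 1794 CPM in mouse 8. The 8 hosts spanned 1.30-fold, from 95.6 CPM in mouse 2 to 124.1 CPM in mouse 7. Rn7s1, Rn7s2 and Rn7sk spanned 1.54-fold and were also lowest in mouse 1 and highest in mouse 8. All snoRNA genes of the table summed to 9311 CPM in mouse 8 and to 5501 to 7328 CPM in the others, and the summed chondrocyte and bone markers were both lowest in mouse 8. The part of these in the pattern was not tested. The length groups were chosen after the values were seen, and the mice belong to 1 group, so no test was made.

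**Figure D5:**
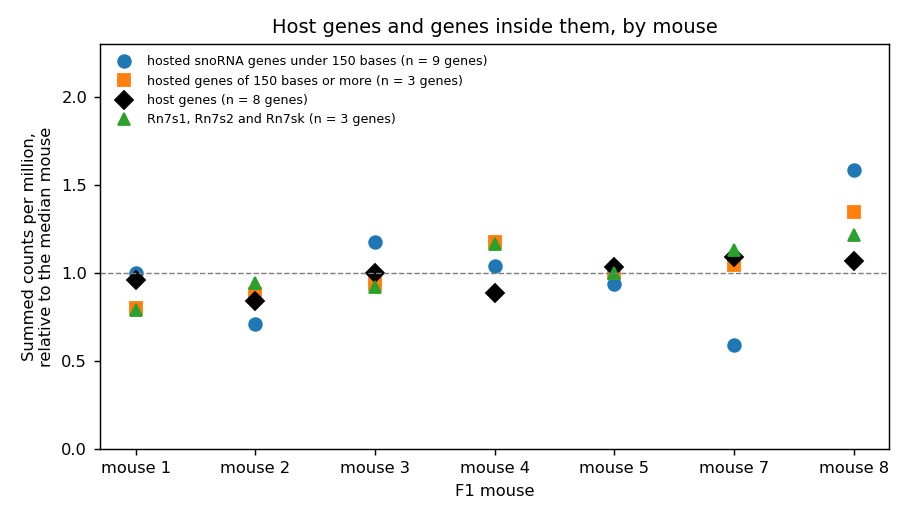
Summed CPM of the hosts, of the hosted genes under 150 bases, of those of 150 bases or more and of the abundant noncoding RNAs, each divided by its median over the 7 mice, by mouse. The shorter hosted genes span 2.70-fold and the hosts 1.30-fold.

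The other genes of the pathway, from lists chosen with earlier results of these data known, were read from the same fit. Of 6 further noncoding hosts with a row (11 listed), 4 were called, all with B6 higher, with a median log2 difference of −0.57, where 34.8% of all genes were called and 18.7% with B6 higher. They include Epb41l4aos, at a fitted difference of −1.04 (edgeR likelihood-ratio test, adjusted p = 0.000315), and Snhg11, at −2.10 on a mean of 6.81 B6 and 1.37 CAST counts (edgeR likelihood-ratio test, adjusted p = 0.00196). With at least 10 counts required in every mouse 2 were called, and without mouse 8 also 2.

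Of 55 protein-coding snoRNA hosts 21 were called (38.2%), 11 with CAST higher and 10 with B6 higher, and the median was 0.02. These shares stand beside 34.8% of all genes, and 2 of the called genes are X-linked in male mice, among them Dkc1, which had the lowest value of the list, −3.13. The highest values belonged to ribosomal protein genes. Rps12 had 6372 ± 1829 CAST and 71.8 ± 25.6 B6 counts and Rpl27a 5670 ± 1634 and 1573 ± 475 (SD, n = 7 for each), with totals not whole in any mouse for either. Such genes have near-identical processed copies in the genome, and because the authors' counting could divide reads between copies their values are given as uncertain. The part of divided reads in them was not tested. Rpl21 had a fitted difference of −0.94 (edgeR likelihood-ratio test, adjusted p = 2.12e-13) and is uncertain in the same way. With the mouse as a block 36 of the 55 were called in either test, beside 45.6% and 40.7% of all genes in the likelihood-ratio and quasi-likelihood tests.

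Of 18 genes for snoRNA-protein particles and their assembly 4 were called (22.2%, beside 34.8% of all genes), all with B6 higher. These include Dkc1, the pseudouridine synthase of H/ACA particles, at −3.13, which is X-linked in male mice that carry a single X chromosome, and Ruvbl1, an assembly ATPase, at −0.38 with 268 ± 75.6 CAST and 358 ± 121 B6 counts (SD, n = 7, edgeR likelihood-ratio test, adjusted p = 0.000497). Dkc1 is also among the protein-coding hosts.

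Of 15 genes of nonsense-mediated decay, the route that removes many host exons, 5 were called (33.3%, beside 34.8% of all genes), 2 with CAST higher and 3 with B6 higher. Casc3, a part of the exon junction complex, had a fitted difference of 0.39 with CAST higher in 7 of 7 mice (edgeR likelihood-ratio test, adjusted p = 0.000382), and Magoh, another part of it, 0.42 with CAST higher in 6 of 7 (edgeR likelihood-ratio test, adjusted p = 0.00581). Upf3b was at −0.96 (edgeR likelihood-ratio test, adjusted p = 4.62e-09). It is X-linked in male mice that carry a single X chromosome, so its call does not compare alleles within a mouse. Upf3b still held 36.0 ± 13.8 CAST and 71.0 ± 25.8 B6 counts (SD, n = 7). Its CAST share ran from 29.8% to 38.0%. Counts were thus assigned to both alleles of a gene on a single X. The part of such assignment in the allele shares of the hosts was not tested. Smg9 was at −0.33 with B6 higher in 7 of 7 mice (edgeR likelihood-ratio test, adjusted p = 0.00929). With the mouse as a block 9 of the 15 were called in either test, beside 45.6% and 40.7% of all genes.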

How the data were processed

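Growth plate RNA of 7 F1 mice was sequenced as paired reads from stranded, ribosomal-RNA-depleted libraries. The authors aligned the reads with Bowtie, allowing at most 3 mismatches, to a B6 and CAST transcriptome made with g2gtools on mm10, and deposited EMASE's estimated counts per gene for B6, CAST and their sum. These expected counts need not be whole and are not normalized, and the annotation release is not given in the sources used here. Of the gene identifiers, 98.0% were found in GENCODE M21 (GRCm38), which gave names and coordinates.

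Values under 1e-06 were treated as 0. Counts of the 20020 genes in which each mouse had a count for 1 allele or both were rounded and fitted with edgeR 4.0.16 (R 4.3.3) using TMM factors and the likelihood-ratio test named in the study's methods, CAST against B6, and were called at a Benjamini-Hochberg FDR under 0.20. This fit treats the alleles of a mouse as separate libraries. Single genes were tested over the 7 mice by exact permutation, flipping the signs of log2 ratios (0.5 added to each count) and counting both sides. The 8 hosts were tested singly, with no adjustment over them. Between pairs of libraries the chi-square per degree of freedom was 13.7 to 90.6, above sampling noise, so none were merged. Nothing says that growth plates were pooled across mice.

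Text names follow a rule: the members, the snoRNA genes and neighbours that position gives, and of each other list the called genes of lowest P, 2 in each direction. Members and lists were chosen with earlier results of these data known. Alternatives were the mouse as a replicate block, DESeq2 1.42.0, edgeR's quasi-likelihood test, other filters, library sizes, rounding, thresholds, lengths and pseudocounts, and each mouse left out, with a filter that keeps any value above 0 added after the data were seen. The alleles of a mouse share 1 library and are paired by design, and their deviations from the allele means correlated by 0.185 on average (lowest 0.048) over 15099 genes, against −0.031 on average (highest 0.240) between mice. Summaries used Python 3.11.15 with numpy 2.4.6, pandas 2.3.3 and scipy 1.17.1, and plots matplotlib 3.10.9.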

Additional observations from a re-analysis of the deposited data

How the results depend on the processing

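The number of hosts called was 4 to 6 over all alternatives (4 to 5 with a mouse left out), and Snhg5, Snhg6, Snhg12 and Snhg17 kept their direction and their call under each one run. With the mouse as a replicate block Gas5 was called (log2 difference 0.13 in both block fits), and Snhg15 was not in the quasi-likelihood fit (0.44). The block changed no other call among the 8 hosts. Calls rose to 36 protein-coding hosts, 9 decay genes and 5 hosted snoRNA genes in either block fit. In the likelihood-ratio and quasi-likelihood block fits 5 and 4 other noncoding hosts were called. Of the genes for snoRNA-protein particles 6 and 5 were called in these fits. The other noncoding hosts called fell from 4 to 2 with at least 10 counts in every mouse and at an FDR under 0.05, and were 2 to 4 with a mouse left out. Directions turned for uncalled differences near 0: Snhg3 ran from −0.074 to 0.094 in the fit and −0.10 to 0.060 in the sign-flip test with a mouse left out, and Snhg20 from −0.020 to 0.11 in the sign-flip test. Snhg15 lost its call without mouse 1, 2, 3, 7 or 8 (0.24 to 0.56 with each mouse left out). Of the 8 places in the order of levels, 4 stayed with the longest transcript and 3 with the mean transcript length. The cause of these changes was not tested. Counts under about 10 per mouse, as in Snhg11 or most short snoRNA genes, limit what could be seen.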
